A study of Mus musculus with 91 samples.

Results

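The genes described here encode the basement membrane, the collagens and the integrin receptors that bind them. They were taken by symbol: every collagen chain (Col and a number), laminin chain (Lama, Lamb or Lamc) and integrin alpha or beta chain, together with Fn1 (fibronectin), Nid1 and Nid2 (nidogens), Hspg2 (perlecan), Sparc and Dag1 (dystroglycan). The symbols matched 88 genes, of which 18 had no read, 19 had a read in 1 or 2 cells and 51 had a read in at least 3 of the 91 cells. These 51 measured members stand among 18054 measured genes, out of 53379 genes counted. Similar symbols that belong to no chain (Col4a3bp, Itgb1bp1, Itgb1bp2, Itgb3bp and Itgbl1) were left out.

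The cells came from the caudal lateral epiblast of wild type MF1 mouse embryos at the early head fold, about E8.0, whose dissected pieces, freed of most of the mesoderm beneath, were pooled, dissociated and sorted as single cells for Smart-seq2. This full-length method adds no molecular identifiers, so several reads can come from 1 transcript. No embryo is named for any cell, and the 91 cells are therefore 1 pooled sample with no replicate and no test between classes. Total counts were 709866 to 4439571 per cell with a median of 2507671, and the medians of the classes were close (2450073 and 2589802).

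A basement membrane is a thin sheet of matrix on the basal side of an epithelium, built on a network of laminin trimers and a network of collagen IV that nidogens and perlecan link. Cells hold on to it through integrins, each a dimer of an alpha and a beta chain, and through dystroglycan. At the primitive streak epiblast cells lose contact with this sheet as they leave the epithelium to become mesoderm, where fibronectin is a main component of the matrix between the cells.

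Cells were called epiblast-like where they had more Nkx1-2, a gene of the caudal epiblast, than Aldh1a2, the retinoic acid-producing enzyme of the nascent mesoderm, and mesoderm-like otherwise. The rule gave 43 epiblast-like and 48 mesoderm-like cells. It uses no member, and both values come from the same cell. Leaving out these class genes, 6 of 7 other epiblast markers had reads in at least 50% of the epiblast-like cells and 3 in at least 50% of the mesoderm-like cells. Of 9 other mesoderm markers all had reads in at least 50% of the mesoderm-like cells, against 1 (Lef1) in the epiblast-like cells. The markers were chosen with earlier results of these data known, so they are no independent check of the rule. Between the classes, 4 cells lay within 4-fold of the line, and 18 mesoderm-like cells and 1 epiblast-like cell had at least 10 CPM of both genes.

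Markers of cell types that could carry a matrix of their own were low, with exceptions. The summed level of 10 definitive and visceral endoderm markers reached at most 21.8 CPM in an epiblast-like and 52.5 CPM in a mesoderm-like cell, and that of 7 node and notochord markers was 0 in the median cell of both classes. Cells D4 and G3 (mesoderm-like) had 1711 and 194 CPM of the node markers and cell G9 (epiblast-like) 218 CPM, and the numbers of members called below were 9 and 20 without these 3 cells as well. Few of the node markers made up these sums. That of D4 was Cer1 alone and that of G3 was Foxa2 and Nog, while only Nog and Foxj1 had reads in epiblast-like cells. Noto, Shh and Chrd had no read in any cell, so the sums do not identify node cells. Of 7 parietal endoderm markers, Thbd, Gata6 and Sox7 were at or near 0 (means of at most 5.63 CPM in either class) and Plat averaged 1.61 and 12.2 CPM with reads in 4 and 5 cells, whereas Fst had reads in all 91 cells, Stra6 in 18 and 32 cells, and Pth1r in 1 epiblast-like and 41 mesoderm-like cells. The summed level of these 7 was 31.7 to 1093 CPM in epiblast-like and 118 to 1202 CPM in mesoderm-like cells. Their part in the results was not tested.

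As a set the members were unevenly split between the classes. A gene was called higher in a class when its mean CPM (counts per 1000000 counts of the cell), after 1 CPM was added to both means, was at least 2-fold that of the other class. By this rule 9 of 51 members were higher in epiblast-like cells and 20 in mesoderm-like cells, while 22 were less than 2-fold apart. Over all measured genes 8.18% were higher in epiblast-like and 9.55% in mesoderm-like cells. With a read also asked for in 25% of the cells of the higher class, 5 members remained in the first direction and 13 in the other, against 3.85% and 4.70% of all measured genes. The median log2 ratio of epiblast-like over mesoderm-like cells was -0.47 over the members and 0.01 over all measured genes.

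The direction differed between families. Of 7 laminin chains 3 were higher in each class. Of 23 collagens 3 were higher in epiblast-like and 9 in mesoderm-like cells. Of 11 integrin alpha chains 2 were higher in the former and 5 in the latter, and of 4 integrin beta chains 0 and 1. Of the 6 other genes Sparc was higher in epiblast-like cells, and Fn1 and Nid1 were higher in mesoderm-like cells. Summed over the members, a cell had 241 to 1532 CPM (median 734) in the epiblast-like and 699 to 2980 CPM (median 1564) in the mesoderm-like class. Without Fn1 the medians were 713 and 1008 CPM.

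**Figure D1:**
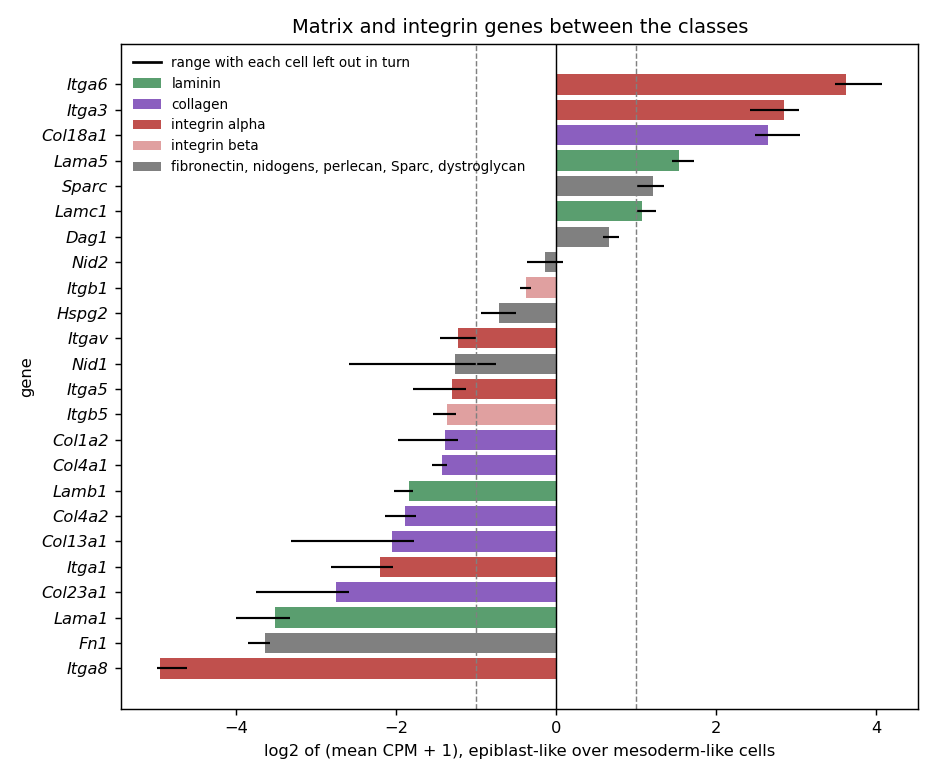
Each bar is a log2 ratio of mean CPM + 1 in 43 epiblast-like over 48 mesoderm-like cells for the 24 members named by rule, coloured by family; black lines are the range of the ratio when each cell was left out in turn, and dashed lines mark a 2-fold difference. Itga6, Itga3 and Col18a1 lie farthest to the right and Itga8, Fn1 and Lama1 farthest to the left; the bar of Itga8, which had no read in epiblast-like cells, depends on the 1 CPM that was added.

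Among the laminins the alpha chain differed most. A laminin is a trimer of an alpha, a beta and a gamma chain, and the alpha chain carries the main sites for receptors. Lama1 (chromosome 17, 67697259 to 67822647 in GRCm38), the alpha 1 chain of the first basement membranes of the embryo, was read in 6 of the 43 epiblast-like cells (13.95%, with an interval of 5.30 to 27.9%) and in 35 of the 48 mesoderm-like ones (72.9%, 58.2 to 84.7%). Its levels ran from 0 through a median of 0 to 72.99 CPM in epiblast-like cells and from 0 through a median of 42.1 to 422 CPM in mesoderm-like cells. The ranges overlap, since 13 mesoderm-like cells had no read, but the highest mesoderm-like cells stood well above any epiblast-like cell. The means were 4.67 ± 15.5 CPM (SD over cells, here and below) and 63.8 ± 85.01 CPM, a log2 ratio of -3.51.

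Lama5 (chromosome 2, 180176373 to 180225859), the alpha 5 chain found under many epithelia, went the other way. It had reads in 30 epiblast-like cells (69.8%, 53.9 to 82.8%) and 17 mesoderm-like cells (35.4%, 22.2 to 50.5%). Its levels were 0, 54.4 and 214 CPM (lowest, median and highest) in epiblast-like and 0, 0 and 139 CPM in mesoderm-like cells, so that the classes overlapped over most of the range. The means were 60.4 ± 60.7 and 20.2 ± 35.3 CPM, a log2 ratio of 1.54.

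Both alpha chains were also counted within cells, a count made after the values of both genes were known. In the epiblast-like class 25 cells had reads of Lama5 only, 1 of Lama1 only, 5 of both and 12 of neither. In the mesoderm-like class 4 cells had reads of Lama5 only, 22 of Lama1 only, 13 of both and 9 of neither. Per length, as counts divided by exon length and scaled to 1000000 per cell (TPM), Lama5 made up 91.4% of the mean level of the measured laminin alpha chains in epiblast-like cells, and Lama1 made up 78.7% in mesoderm-like cells.

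The partner chains differed less. Lamb1, the beta 1 chain shared by both kinds of trimer, had reads in 26 epiblast-like and 45 mesoderm-like cells. Its median was 10.5 CPM (highest 241) in the former and 124 CPM (highest 353) in the latter, with a log2 ratio of -1.84. Lamc1, the gamma 1 chain of nearly all laminins of the early embryo, had reads in 32 epiblast-like and 22 mesoderm-like cells, with means of 61.6 ± 56.1 and 28.8 ± 48.4 CPM and a log2 ratio of 1.07. The Lamc1 call is at the line, since it fell just short of 2-fold without cell F5, and the log2 ratio was 0.94 with TMM scaling. All 48 mesoderm-like cells had a read of Lamb1 or Lamc1, 19 of both, 26 of Lamb1 only and 3 of Lamc1 only. In the epiblast-like class 19 cells had both, 7 Lamb1 only, 13 Lamc1 only and 4 neither. Beta 1 and gamma 1 thus leaned to opposite classes although they share a trimer.

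**Figure D2:**
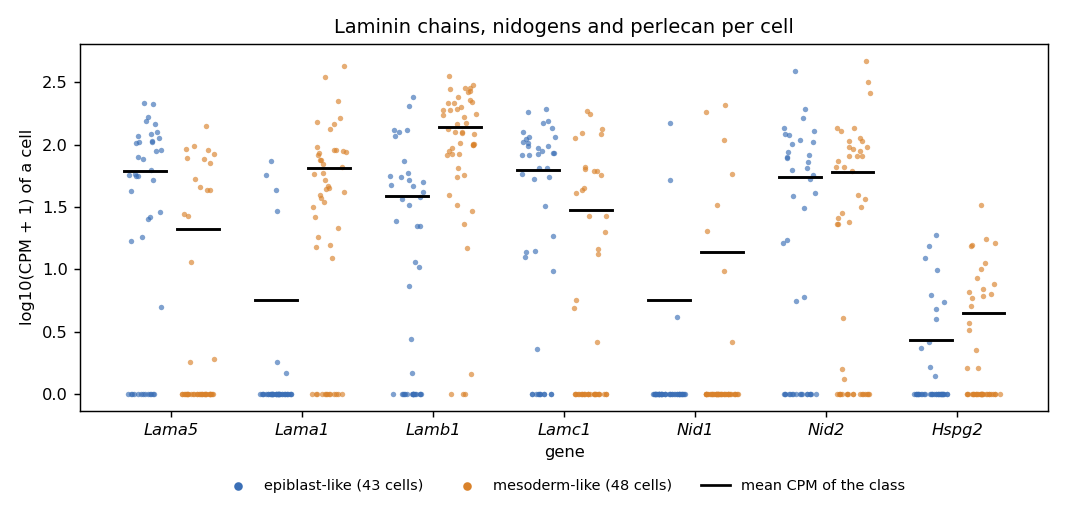
Each point is a cell, plotted as log10(CPM + 1) on the vertical axis for laminin chains, nidogens and perlecan, with 43 epiblast-like cells in blue and 48 mesoderm-like cells in orange; the black line is the mean CPM of the class on the same scale, and points on the bottom line had no read. Lama5 and Lamc1 are denser in blue and Lama1 and Lamb1 in orange, while Nid2 has means of 54.1 and 59.7 CPM.

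The linker and receptor proteins of the sheet were closer between the classes. Nid2, which joins laminin to collagen IV, had reads in 26 epiblast-like and 31 mesoderm-like cells, at 54.1 ± 73.96 and 59.7 ± 90.02 CPM. Its log2 ratio of -0.14 moved between -0.36 and 0.09 when single cells were left out, so its sign is not fixed. Nid1, the other nidogen, was rare, with reads in 3 and 8 cells. Its log2 ratio of -1.27 fell short of 2-fold without cell C3 or cell F8 and was -2.59 without cell F5. Hspg2, which encodes perlecan, a large heparan sulfate proteoglycan, had reads in 12 and 20 cells at low levels (1.69 ± 4.03 and 3.43 ± 6.26 CPM).

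Dag1, which encodes dystroglycan, a laminin receptor outside the integrin family, had reads in 34 cells of each class. Its median was 47.7 CPM (0 to 212) in epiblast-like and 26.3 CPM (0 to 189) in mesoderm-like cells, a log2 ratio of 0.66 that is under 2-fold. Sparc, a collagen-binding matrix protein, had reads in 32 epiblast-like and 16 mesoderm-like cells. Its median was 16.6 CPM (0 to 185) in the first class and 0 CPM (0 to 63.4) in the second. The log2 ratio of 1.21 fell just short of 2-fold without cell F7, the cell with the highest level. The share of cells with a Sparc read did not rest on that cell, at 74.4% (58.8 to 86.5%) against 33.3% (20.4 to 48.4%).

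Collagen IV, the network-forming collagen of every basement membrane, was higher in mesoderm-like cells. Its alpha 1 chain Col4a1 had reads in 27 epiblast-like cells and 42 mesoderm-like cells. Levels were 0, 6.76 and 171 CPM (lowest, median and highest) in epiblast-like and 0, 77.6 and 270 CPM in mesoderm-like cells, with a log2 ratio of -1.43. Col4a2, its partner in the trimer, had reads in 13 and 27 cells, with highest levels of 86.5 and 241 CPM and a log2 ratio of -1.90. Most epiblast-like cells lacked Col4a2 reads, and the mesoderm-like cells spanned the whole range from 0 upward. The other collagen IV chains were rare: Col4a5 and Col4a6, both under 2-fold apart, had reads in 7 and 10 of all 91 cells, and Col4a3 and Col4a4 had a read in 1 cell each.

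Col4a1 and Col4a2 lie head to head on chromosome 8 and are transcribed away from each other, and their first exons share 22 bases in the annotation used here. Short stretches around some of the sequence motifs near both starts are printed because the pair was higher in the same class and shares this region. The letters CCAAT and GGGCGG, or their reverse complements, were searched on both strands in the window from 250 bases before to 50 bases after each RefSeq start (GRCm38.p6), and matches are in capitals (the Col4a2 window held 2 more GGGCGG matches, starting 192 and 48 bases before its start, which are not printed):
Col4a1 strand, chr8:11312955-11312983 (-): tgcttgcccgggATTGGcgagccaagggg
Col4a2 strand, chr8:11312761-11312789 (+): ccgaggagctccCCAATttgttggcgctg
both windows, chr8:11312800-11312829 (+): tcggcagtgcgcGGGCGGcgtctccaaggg
The GGGCGG match of the last stretch is the same 6 bases in the windows of both genes, 8 bases into Col4a2 and 10 bases into Col4a1. Of 32851 promoter windows of the same length, 37.4% held CCAAT, 35.7% held GGGCGG and 12.8% held both, so that such a match is common, and it describes letters and not a bound factor.

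Of the 19 measured collagens outside collagen IV, 3 were higher in epiblast-like and 7 in mesoderm-like cells, and the other 9 were under 2-fold apart. Col23a1, a transmembrane collagen, had reads in 3 epiblast-like and 25 mesoderm-like cells, at 3.84 ± 17.3 and 31.6 ± 52.9 CPM (log2 ratio -2.75). Col13a1, another transmembrane collagen, had reads in 3 and 18 cells (log2 ratio -2.05). Both ratios moved by over 1.5 times without cell E5, the epiblast-like cell with the highest level of each, to -3.76 and -3.32. Col1a2, a chain of fibrillar collagen I, had reads in 5 and 19 cells (log2 ratio -1.39, or -1.98 without cell A9). Col1a1, which encodes the other chain of collagen I, had reads in 2 and 7 cells, so most cells with a Col1a2 read lacked one of its partner. Col3a1 had no read in any cell.

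Col18a1 (chromosome 10, 77052178 to 77166548), a basement membrane collagen that carries heparan sulfate chains, was the exception among the common collagens. It had reads in 32 epiblast-like cells (74.4%, 58.8 to 86.5%) and 11 mesoderm-like cells (22.9%, 12.03 to 37.3%). Levels were 0, 36.9 and 340 CPM in epiblast-like and 0, 0 and 127 CPM in mesoderm-like cells, with means of 63.2 ± 86.7 and 9.28 ± 24.01 CPM and a log2 ratio of 2.64. All 11 mesoderm-like cells with Col18a1 reads also had Col4a1 reads, and 31 had Col4a1 only. In the epiblast-like class 12 cells had Col18a1 only, 7 Col4a1 only and 20 both.

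Fn1 (chromosome 1, 71585520 to 71653200), which encodes fibronectin, was the most abundant member in mesoderm-like cells. It had reads in 47 of 48 of them, with a median of 568 CPM and a highest level of 1719 CPM. In epiblast-like cells 33 of 43 had reads, with a median of 19.7 CPM and a highest level of 335 CPM. The log2 ratio was -3.64 and stayed between -3.85 and -3.58 when single cells were left out. Fn1 was thus not absent from the epiblast-like class but low in it, and 25 of 43 cells still had a read when every cell was thinned to 500000 counts. The study's clustering of these same cells put Fn1, Lama1 and Lamb1 among the marker genes of a cluster and Col18a1 and Itga6 among those of the other, so that their directions are not independent evidence.

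**Figure D3:**
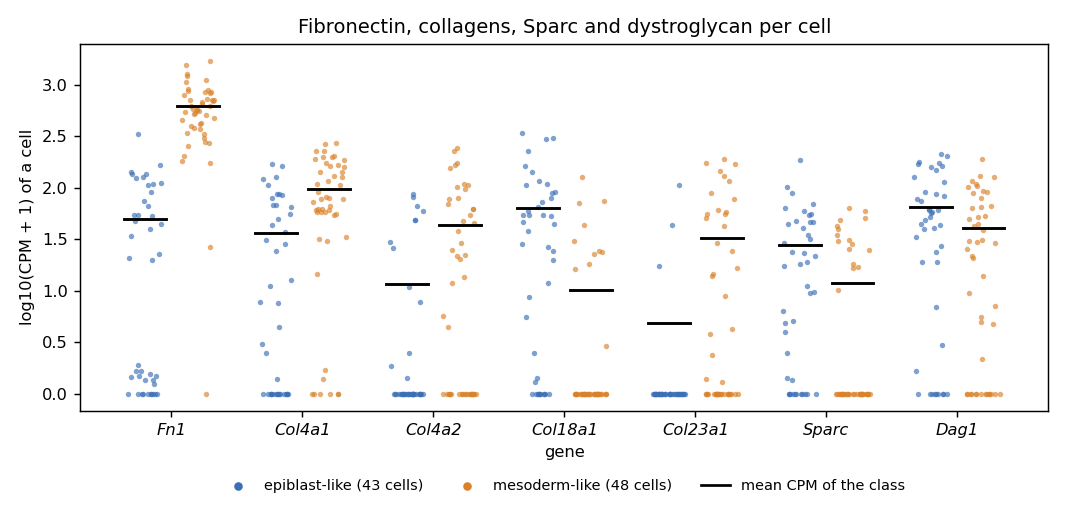
Each point is a cell, plotted as log10(CPM + 1) on the vertical axis for fibronectin, collagens, Sparc and dystroglycan, with 43 epiblast-like cells in blue and 48 mesoderm-like cells in orange; the black line is the mean CPM of the class on the same scale, and points on the bottom line had no read. Fn1 separates the classes most, with medians of 19.7 and 568 CPM, Col18a1 and Sparc are denser in blue, and Dag1 had reads in 34 cells of each class.

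Integrin alpha chains decide which matrix protein a dimer binds. Itga6 (chromosome 2, 71745616 to 71858416), a laminin-binding chain, had reads in 32 epiblast-like cells (74.4%, 58.8 to 86.5%) and 5 mesoderm-like cells (10.4%, 3.47 to 22.7%). Levels were 0, 40.2 and 241 CPM in epiblast-like and 0, 0 and 53.8 CPM in mesoderm-like cells. Its log2 ratio of 3.62 was the highest of the 51 members. Itga3, the other common laminin-binding chain of epithelia, was rarer but leaned the same way, with reads in 9 and 1 cells and means of 7.203 ± 20.1 and 0.144 ± 0.995 CPM.

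The alpha chains Itga8, Itga5 and Itgav, whose dimers bind proteins with an arginine-glycine-aspartate motif such as fibronectin, were higher in mesoderm-like cells. Itga8 (chromosome 2, 12106632 to 12301922), which binds nephronectin and fibronectin, was not read in any of 43 epiblast-like cells (interval 0 to 8.22%) and was read in 15 mesoderm-like cells (31.2%, 18.7 to 46.25%). No fold is given, since without a read in epiblast-like cells it would depend on the 1 CPM added. The positive cells were few, and the highest had 336 CPM against a mean of 30.02 ± 70.7 CPM. Itga5, the alpha 5 chain of the classic fibronectin receptor, had reads in 10 and 21 cells, at 11.4 ± 32.7 and 29.5 ± 53.1 CPM (log2 ratio -1.30). That ratio was -0.82 without the 19 cells with at least 10 CPM of both Nkx1-2 and Aldh1a2.

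Itgav, the alpha v chain, had reads in 20 epiblast-like and 32 mesoderm-like cells. Its median was 0 CPM (0 to 154) in the former and 23.3 CPM (0 to 398) in the latter, and its log2 ratio of -1.23 fell just short of 2-fold without cell H11, which held the highest level. Itga1, a collagen-binding chain, had reads in 5 and 18 cells, at 3.46 ± 12.8 and 19.5 ± 34.3 CPM (log2 ratio -2.20, or -2.82 without cell C8).

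The beta chains were steadier. Itgb1, the beta 1 chain and common partner of Itga1, Itga3, Itga5, Itga6, Itga8 and Itgav, had reads in 41 of 43 epiblast-like and 44 of 48 mesoderm-like cells. Levels were 0, 122 and 342 CPM in the former and 0, 117 and 435 CPM in the latter, a log2 ratio of -0.38, and the classes covered almost the same range. Itgb5, a partner of Itgav alone, had reads in 18 and 29 cells, at 13.7 ± 23.9 and 36.9 ± 48.3 CPM (log2 ratio -1.37). Itgb4 and Itgb8 had reads in 8 and 4 of all 91 cells, at means of at most 3.75 CPM in either class. Itga7, another laminin-binding chain, had reads in 13 epiblast-like and 2 mesoderm-like cells, but its means were 0.209 and 0.0309 CPM. Itgb2, Itgb2l and Itgb6 had no read.

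**Figure D4:**
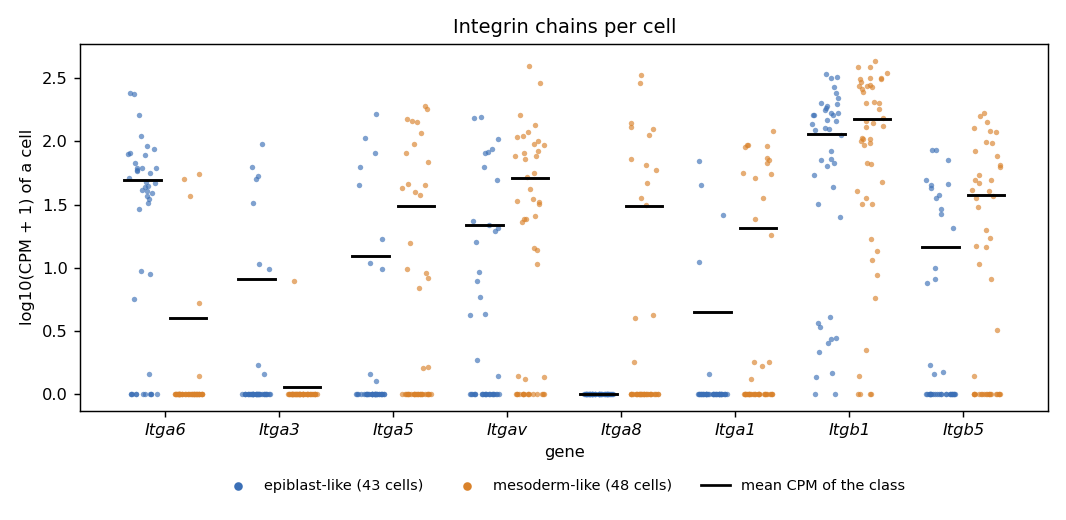
Each point is a cell, plotted as log10(CPM + 1) on the vertical axis for integrin chains, with 43 epiblast-like cells in blue and 48 mesoderm-like cells in orange; the black line is the mean CPM of the class on the same scale, and points on the bottom line had no read. Itga6 is mostly blue, with reads in 32 against 5 cells, Itga8 has reads only in orange cells, 15 in all, and Itgb1 covers almost the same range in both classes.

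Per length, the mean levels of the integrin chains were set out as shares of the alpha and of the beta chains. Itga6 made up 45.8% of the mean TPM of the measured alpha chains in epiblast-like cells, followed by Itga5 with 19.9% and Itgav with 16.5%. In mesoderm-like cells Itga5 made up 35.3%, Itgav 27.5% and Itga8 23.9%, and Itga6 2.02%. Itgb1 made up 86.9% of the beta chains in epiblast-like and 77.8% in mesoderm-like cells, and Itgb5 11.99% and 21.4%. In mesoderm-like cells Itga5 (17.5 ± 31.4 TPM, median 0) and Itgav (13.7 ± 21.1 TPM, median 6.57) lay within their spread, and the medians have the opposite order. These shares come from class means and rest on few positive cells for the rarer chains.

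Reads of every chain of a complex in the same cell were counted next, since a dimer or trimer needs all of them. Itgb1 had reads in 41 of 43 epiblast-like and 44 of 48 mesoderm-like cells. The counts of its pairs therefore mostly repeat the counts of the alpha chain given above. Counts of the other pairs and of the trimers also depend on how common each chain is. They were not compared with the overlap that the single chains alone would give. Itga6 and Itgb1 were found together in 31 of 43 epiblast-like cells (72.1%, 56.3 to 84.7%) and 5 of 48 mesoderm-like cells (10.4%, 3.47 to 22.7%). Itga8 and Itgb1 were found together in 0 and 14 cells (29.2%, 16.95 to 44.1%), and Itga1 and Itgb1 in 5 and 17. The dimers of fibronectin and vitronectin receptors leaned the same way, with Itga5 and Itgb1 in 9 and 20 cells and Itgav and Itgb5 in 8 and 21. Itgav and Itgb1 were found together in 19 and 29 cells, with intervals that overlap widely (29.1 to 60.1% and 45.3 to 74.2%).

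Of the laminin trimers, Lama1, Lamb1 and Lamc1, the chains of laminin-111, were found together in 2 epiblast-like cells (4.65%, 0.568 to 15.8%) and 16 mesoderm-like cells (33.3%, 20.4 to 48.4%). Lama5, Lamb1 and Lamc1, the chains of laminin-511, were found together in 12 and 10 cells (27.9% and 20.8%), although Lama5 itself was higher in epiblast-like cells. Col4a1 and Col4a2 were found together in 10 and 25 cells. With every cell thinned to 500000 counts the numbers were 1 and 16 for laminin-111, 12 and 9 for laminin-511, and 9 and 23 for the collagen IV pair.

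**Figure D5:**
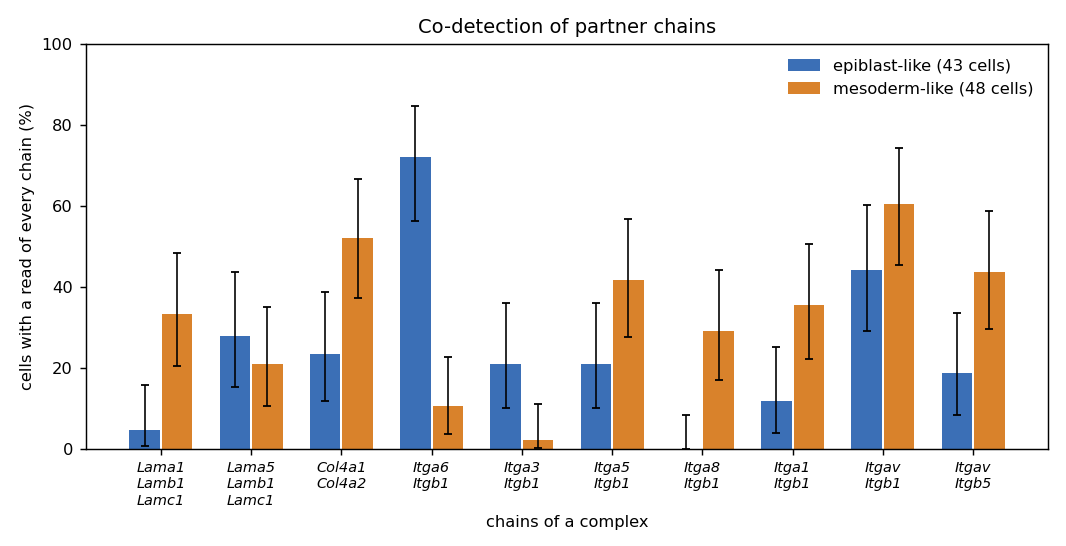
Bars show the percentage of 43 epiblast-like (blue) and 48 mesoderm-like (orange) cells with at least 1 read of every chain named below them. Lines are exact 95% intervals, which take cells as independent draws and do not cover differences between embryos. Itga6 with Itgb1 stands highest in epiblast-like cells at 72.1%, and Itga8 with Itgb1 has 0 epiblast-like cells against 29.2% of mesoderm-like cells. Pairs with Itgb1, which was read in nearly all cells, mostly repeat the counts of their alpha chain.

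Correlations between partner chains over the cells of a class, on log2(CPM + 1), were mostly low. Over the 48 mesoderm-like cells Spearman's rho of Col4a1 and Col4a2 was 0.08 and Pearson's r 0.15, and over the 43 epiblast-like cells they were 0.17 and 0.21. Of the 9 pairs examined Lama1 and Lamc1 in mesoderm-like cells had the highest values, with a rho of 0.44 and an r of 0.39. All points of a class share the pool and differ in depth, and in such sparse counts weak values are no finding.

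Ordered by level per length, the leading members differed between the classes. In epiblast-like cells Itgb1 stood first with 83.2 ± 70.99 TPM, followed by Nid2 (30.9 ± 41.9), Dag1 (29.97 ± 29.9), Col18a1 (26.7 ± 36.5) and Lamc1 (22.1 ± 20.2). The last 4 of these lie within a fraction of their spread between cells, and their order is not settled. In mesoderm-like cells Fn1 stood first with 157 ± 92.8 TPM and Itgb1 second with 107 ± 92.7 TPM. Lamb1 (40.2 ± 26.9), Col4a1 (38.3 ± 30.3) and Nid2 (32.8 ± 46.7) followed, again within their spread. In epiblast-like cells Fn1 stood at rank 10, at 12.5 ± 17.3 TPM.

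The 11 mesoderm-like cells nearest to the line (log2 ratio of Nkx1-2 over Aldh1a2, with 1 CPM added to each, between -4 and 0) were set beside the 37 farther from the line and the 42 epiblast-like cells at a log2 ratio of at least 4. Fn1 averaged 46.9 ± 67.5 CPM in the 42 cells, 574 ± 473 CPM in the 11 and 635 ± 326 CPM in the 37. Lamb1 averaged 38.5 ± 56.6, 176 ± 109 and 125 ± 84.3 CPM, and all 11 intermediate cells had a read of it. Itga6 averaged 49.4 ± 55.8, 4.89 ± 16.2 and 2.44 ± 9.96 CPM. For these 3 genes the mean of the 11 intermediate cells lay within 1 SD of that of the 37, and only 1 of the 11 had an Itga6 read. That cell was G3, which also had node markers. Only some of the 24 named members are given for these ranges, and the others did not share 1 pattern. Col4a1 was highest in the 11 cells, at 33.3 ± 46.1, 134 ± 77.8 and 86.2 ± 73.9 CPM. Itga1 was highest in the 37, at 3.54 ± 12.97, 10.2 ± 21.7 and 22.2 ± 37.03 CPM.

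Lama5 and Col18a1 were graded in their means, although not beyond the spread. Lama5 averaged 61.9 ± 60.7, 33.8 ± 40.6 and 16.1 ± 33.1 CPM in the 3 ranges, and Col18a1 64.7 ± 87.2, 15.4 ± 24.5 and 7.46 ± 23.9 CPM. Lamc1 was lowest in the intermediate cells, at 63.1 ± 55.95, 13.3 ± 21.1 and 33.4 ± 53.2 CPM. With 11 cells these means are loose, and the range between 0 and 4 held 1 cell.

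Members found in few cells are given by count. Besides Itga3 and Nid1, 9 members differed at least 2-fold with reads in under 25% of the cells of the higher class, and those given here are named after their values were seen. Col14a1 and Col6a5 were higher in epiblast-like cells (3 cells with reads each), and Col22a1, Col26a1, Col27a1, Col9a1, Itga9 and Lamb3 in mesoderm-like cells (4, 11, 7, 10, 5 and 5 cells). Col9a1, a chain of cartilage collagen IX, had no read in epiblast-like cells (interval 0 to 8.22%) and reads in 20.8% of mesoderm-like cells (10.5 to 34.99%). Calls of 8 members, among them Col22a1, Col27a1, Col6a5, Itgav, Lamc1, Nid1 and Sparc, ended when a single cell was left out. Of the 51 members, 31 had reads in at least 3 cells of each class. The minimum of 3 cells was reached only in the epiblast-like class by 9, only in the mesoderm-like class by 8, and only over both classes together by 3.

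Genes that make, cut or anchor the matrix were counted by list beside the members, with the same rule. For comparison, 8.18% of all measured genes were higher in epiblast-like and 9.55% in mesoderm-like cells. Of 21 measured genes of collagen processing, 1 was higher in epiblast-like and 3 in mesoderm-like cells. Serpinh1, the chaperone of procollagen, had reads in 39 and 47 cells, at 34.6 ± 29.97 and 88.8 ± 60.5 CPM. P4hb, a subunit of prolyl hydroxylase, had reads in every cell and was close in both classes (443 ± 183 and 478 ± 213 CPM), and it is named after its values were seen.

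Of 15 other basement membrane proteins 4 were higher in epiblast-like and 3 in mesoderm-like cells. Fras1 and Frem2, partners in a complex below embryonic epithelia, had reads in 26 epiblast-like cells each, against 16 and 12 mesoderm-like cells, with log2 ratios of 1.44 and 2.06. Smoc1, a calcium-binding matrix protein related to Sparc, went the other way, with reads in 5 and 30 cells and a log2 ratio of -3.31. Of 13 surface receptors and co-receptors 2 were higher in epiblast-like and 3 in mesoderm-like cells. Sdc4, a syndecan that binds fibronectin together with integrins, averaged 66.2 ± 71.9 and 16.3 ± 27.2 CPM, and Cd47, an integrin-associated protein, 21.1 ± 39.2 and 51.4 ± 68.9 CPM.

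Of 28 genes of integrin adhesion 4 were higher in epiblast-like cells, 3 in mesoderm-like cells and the other 21 under 2-fold apart. The shares over all measured genes were 8.18% in epiblast-like and 9.55% in mesoderm-like cells. Tln2, a talin that links beta chains to actin, had reads in 19 and 43 cells (18.5 ± 31.9 and 96.9 ± 90.8 CPM), and Kank1, a talin-binding protein, in 11 and 32. Src, a kinase of adhesion sites, leaned to epiblast-like cells with a log2 ratio of 1.10. Of 21 matrix proteases and inhibitors 4 were higher in epiblast-like and 8 in mesoderm-like cells. The membrane-bound Mmp14 averaged 43.6 ± 59.01 and 126 ± 109 CPM, Mmp2, which Mmp14 activates, 16.8 ± 32.2 and 42.97 ± 58.4 CPM, Adam10 168 ± 122 and 442 ± 324 CPM, and Adam19 8.15 ± 26.6 and 31.5 ± 56.6 CPM.

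Reads of overlapping genes could not be told apart for some members. Exons of Fn1 share 292 bases with the opposite-strand gene Apol7d, those of Itgav 634 bases with Gm13684, those of Itga8 372 bases with E030013I19Rik and those of Nid2 437 bases with Rtraf. Itga1 shares 685 bases with Gm49395 on the same strand. Whether the counting used strand was not stated by the sources used here.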

How the data were processed

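The authors aligned Smart-seq2 reads to GRCm38 (mm10) with HISAT2 and counted them per gene with featureCounts, as named in the submitters' processing notes. The deposited values are these counts, with no normalization. Versions, annotation and strand setting: not given in the sources used here. There were no rows without a gene and no cells with equal counts. Every cell was kept. The cells were sorted singly, and doublets were not called, so cells with both class genes were not checked for being doublets.

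Counts were scaled to 1000000 per cell (CPM). Means are over cells, and shares have exact Clopper-Pearson intervals of 95% confidence. These intervals take cells as independent draws, although no embryo is named for any cell, and do not cover differences between embryos. TPM used union exon lengths of GENCODE for GRCm38, which may differ from the authors' annotation. Python 3.11.15 with numpy 2.4.6, scipy 1.17.1 and pandas 2.3.3 was used, and the steps were tested on simulated data. Scaling by edgeR 4.0.16 (TMM with singleton pairing) and DESeq2 1.42.0 (size factors) served only as alternatives. Promoter sequences are from RefSeq (GRCm38.p6), and both genes looked up were found.

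Members, lists and markers were chosen with earlier results of these data known. Named with values were members with a read in 50% of the cells of either class, members at least 2-fold apart with a read in 25% of the cells of the higher class, and a fixed list of basement membrane and integrin genes; of each pathway list, up to 4 genes with the largest ratio among those 2-fold apart with a read in 50% of the cells of the higher class. Members outside the rule were named after their values were seen. Some members that were counted are not reported by name here.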

Additional observations from a re-analysis of the deposited data

How the results depend on the processing

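The numbers of members 2-fold higher in epiblast-like and mesoderm-like cells (9 and 20) depended most on the amount added before the ratio. They were 3 and 9 with 10 CPM added (median log2 ratio -0.12), and 14 and 20 with 0.1 CPM added (median -0.78). With the mean of log2(CPM + 1) they were 5 and 15 (median -0.089), and 3 and 9 were 4-fold apart. The median was -0.11 with no minimum number of cells and -1.18 with a read asked for in at least 10 cells. Leaving out each cell in turn gave 8 to 11 and 18 to 21 members and a median of -0.52 to -0.39. Without the cells with markers of other types, an alternative chosen after seeing the data, the numbers were 9 and 20. Of the 24 named members 20 were 2-fold apart. All 20 kept their sign under every setting and 11 stayed 2-fold apart under every setting. Of 144 numbers of cells 139 stayed within the 95% interval of the main number, which is wide. Itga7 with Itgb1, at 13 epiblast-like and 2 mesoderm-like cells, fell to 0 in both with at least 5 reads of each. After thinning it fell to 2 epiblast-like cells. Thinning also lowered the epiblast-like cells with a read from 33 to 25 for Fn1 and from 41 to 36 for Itgb1. Itgav with Itgb1 fell from 19 to 13 epiblast-like cells, which is still within its interval. No paired analysis was possible because all cells belong to 1 sample group without replicates. The depth of single cells limits the rarer chains: a cell without a read may still express the gene.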
